A study of Mus musculus with 9 samples.

Results

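The genes described here are 39 genes of the unfolded protein response and the integrated stress response, taken by symbol from a table of 20778 gene symbols. All 39 were found in the table and all 39 passed the filter on low values, a mean normalized count of at least 10 over the 9 libraries, so none was dropped. They were placed in 5 groups by what their products do. The groups are 14 chaperones and folding enzymes of the endoplasmic reticulum (ER), 4 genes of ER-associated degradation, 4 ER stress sensors and their factors, 6 transcription factors of the integrated stress response, and 11 targets of the transcription factor ATF4.

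Bulk RNA was measured in 3 groups of 3 libraries. The tumour group came from GL261 glioblastoma cells, a mouse glioma line labelled with mCherry, of which 50000 were put into the striatum in immunocompetent male C57BL/6 mice, 7 weeks old. The labels give 5 implanted mice and resection of the brains on day 14. The other two groups held a penta-culture, in which GL261 cells at 1000000 per ml grew together with primary astrocytes, microglia, pericytes and endothelial cells from brains of male C57BL/6 mice aged 6 to 10 weeks, kept on a flat dish for the 2D culture and inside fibrin for the 3D bioink. The primary cells were sorted with magnetic beads, and the astrocytes were the cells left over after the beads had taken the rest. Only for the 3D bioink do the labels record a 3 h treatment with collagenase II (600 U per ml) ahead of RNA isolation. GL261 is a single line, every library is a mixture of cells, and the labels do not say whether the 3 libraries of a group came from separate mice or cultures. A lower value can mean fewer cells of a type or less RNA per cell, and these cannot be told apart here.

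Proteins that enter the ER are folded by chaperones of the Hsp70 and Hsp90 families, by the lectin chaperones calnexin and calreticulin, and by disulfide isomerases. When unfolded protein builds up, the sensors IRE1 (Ern1), PERK (Eif2ak3) and ATF6 respond. ATF6 is cut to release a transcription factor, IRE1 splices the Xbp1 mRNA, and PERK phosphorylates the initiation factor eIF2alpha. Phosphorylation of eIF2alpha, which kinases that sense amino acid shortage, viral RNA or lack of heme also carry out, lowers general translation and raises that of ATF4, and this shared branch is the integrated stress response. ATF4 and its partners CHOP (Ddit3) and the C/EBP factors drive genes for amino acid synthesis and transport, and the phosphatase subunit GADD34 (Ppp1r15a) that reverses the signal. The values here are RNA levels per gene. Phosphorylation of eIF2alpha, cleavage of ATF6 and splicing of Xbp1 were not measured.

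The ER and ATF4 arms are read from different promoter elements, and examples of both are shown to let the letters of each be compared. RefSeq promoters (GRCm38.p6, 300 bases each, running from 250 bases before the start site to 50 after it) were found for 35 of the 39 genes. They were searched on both strands. The ER stress element, bound by ATF6 and by the factor NF-Y, was taken as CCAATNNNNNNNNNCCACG. It occurred in 39 of 32851 promoters (0.119%) and in 8 of the 35 genes, namely Calr, Canx, Creld2, Dnajc3, Hsp90b1, Hspa5 and Pdia6 of the 12 folding genes with a promoter and Syvn1 of ER-associated degradation. A second form, ATTGGNCCACG, occurred in 12 promoters (0.037%), among them those of Dnajb11 and Herpud1. The C/EBP-ATF response element, to which ATF4 binds with a C/EBP partner, was taken as TGATGNAA. It occurred in 1304 promoters (3.969%), among them those of Asns, Chac1, Trib3 and Vldlr of the 10 ATF4 targets with a promoter, of the factor Nupr1 and of Herpud1. The XBP1 site TGACGTGG occurred in 222 promoters (0.676%) and in 0 of the 35. Among these genes no match overlapped another. A match describes the letters only.

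Below are 6 stretches, each read 5′ to 3′ in the direction of the gene, with the matching element in capitals. An element on the opposite strand appears in its reverse form, as CGTGG before ATTGG or as TTGCATCA. The windows are chr2:34772015-34772053 (plus strand, ending 37 bases before the start site) for Hspa5 and chr10:86705523-86705666 (minus strand, ending 79 bases before the start site), which holds 2 ER stress elements, for Hsp90b1. Those of the lectin chaperones are chr8:84847065-84847103 (minus strand, ending 134 bases before the start site) for Calr and chr11:50325790-50325828 (minus strand, ending 117 bases before it) for Canx. The 2 ATF4 targets are Asns at chr6:7693215-7693242 (minus strand, ending 6 bases before the start site) and Chac1 at chr2:119351039-119351066 (plus strand, ending 176 bases before it).
Hspa5: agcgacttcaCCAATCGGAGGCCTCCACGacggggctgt
Hsp90b1: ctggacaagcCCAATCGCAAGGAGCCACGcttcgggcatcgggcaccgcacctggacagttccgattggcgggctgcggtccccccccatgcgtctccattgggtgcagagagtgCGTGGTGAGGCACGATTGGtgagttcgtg
Calr: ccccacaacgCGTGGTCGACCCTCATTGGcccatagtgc
Canx: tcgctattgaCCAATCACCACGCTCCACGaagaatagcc
Asns: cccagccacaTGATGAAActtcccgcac
Chac1: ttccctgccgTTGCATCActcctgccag

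Several facts of the whole table bear on these genes. The deposited values summed to 16320090 to 16388074 in the tumour libraries, 15572800 to 15711632 in 2D culture and 13548461 to 13683978 in 3D bioink, and read depth is unknown. Replicates 1 and 3 of the 3D bioink stood apart. Array weights were 0.236, 0.761 and 4.96 for bioink replicates 1, 2 and 3, against 0.688 to 1.77 in the other groups. Results with array weights therefore rest mainly on replicate 3 for the 3D bioink. All tested genes had a median log2 difference of 0.01 in 2D culture against tumours, of -0.11 in 3D bioink against tumours, and of -0.02 between 3D bioink and 2D culture. Quantile normalization moved the first to 0.18 and the second to 0.04, and scaling to equal upper quartiles moved the second to 0.12 and the third to 0.20. Differences also followed transcript length. Over 13725 tested genes with a length, Spearman's rho between the log2 difference and the merged exon length was 0.314 in 3D bioink against tumours, 0.231 between 3D bioink and 2D culture and 0.0992 for 2D culture against tumours. In bins of about equal gene number, genes with the shortest exons (up to 2529 bases) had a median of -0.61 in 3D bioink against tumours, and those with the longest (from 7691 bases) had 0.48. Of the 39 genes described here 12 lie in the shortest bin, 13 in the next and 4 in the longest. Over the 39, rho was 0.702 for 3D bioink against tumours and 0.567 for 2D culture against tumours, but 0.0623 between 3D bioink and 2D culture. The lengths were looked at after the differences, genes are not independent replicates, and the part of length in the results was not tested.

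Cell type markers differed as well. Summed over 12 markers, macrophages and monocytes stood at 33108 to 33982 in the tumours, 242 to 274 in 2D culture and 537 to 629 in 3D bioink. The 10 microglial markers summed to 19798 to 20637, 915 to 1016 and 1541 to 1627 in the same order, with Fcrls at 0 in 3D bioink and Tmem119 at 69 to 87 in 2D culture, although microglia were seeded. Fibroblast markers, a cell type that the labels do not name, summed to 12973 to 13761 in the tumours, 20166 to 21318 in 2D culture and 24471 to 26326 in 3D bioink. These markers did not move one way. Col3a1, most of the tumour sum, stood at 11907 to 12680, 2831 to 2884 and 8091 to 8790 in the same order. Fbln2 stood at 4 to 20, 8348 to 8932 and 1978 to 2554, and Dcn at 0 to 11, 0 to 4 and 329 to 405. Of the 8 markers, 4 were higher and 2 lower in 2D culture than in tumours, against 27.3% and 27.0% of all tested genes. The 8 plasma and B cell markers in the table summed to 791 to 810 in the tumours, 1151 to 1330 in 2D culture and 1017 to 1227 in 3D bioink, most of it Sdc1, which other cells also express, at 677 to 728, 1144 to 1324 and 970 to 1197. Of the others, Jchain stood at 47 to 57 in the tumours, 0 to 4 in 2D culture and 3 to 7 in 3D bioink, and Cd79a at 13 to 27, 0 to 3 and 24 to 40. Mzb1 and Pou2af1 were at 0 in both cultures and reached 10 and 16 in the tumours, and Tnfrsf17 was at 0 in 3D bioink and at most 3 elsewhere. The 19 early response genes, such as Fos and Egr1, which rise quickly when cells are handled, summed to 170544 to 178994 in the tumours, 15986 to 17676 in 2D culture and 92234 to 99336 in 3D bioink. Of these, 19 were lower in 2D culture than in tumours (27.0% of all tested genes), and 18 were higher in 3D bioink than in 2D culture (27.0%). In 3D bioink 13 were lower than in tumours and 3, Klf2, Klf4 and Klf6, higher (37.3% and 27.1% of all tested genes). The part of these cells and of handling in the results below was not tested.

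The study compared tumours with both cultures and the cultures with each other. Most of the 39 genes were lower in the cultures than in the tumours. In 2D culture against tumours 23 were lower and 9 higher (59.0% and 23.1%), against 27.0% and 27.3% of all tested genes. In 3D bioink against tumours 28 were lower and 7 higher (71.8% and 17.9%), against 37.3% and 27.1% of all tested genes. Between the cultures no direction prevailed, with 17 lower and 13 higher in 3D bioink than in 2D culture (43.6% and 33.3%), against 32.2% and 27.0%. A gene was called at an adjusted p under 0.05 from limma, a linear model with a shared estimate of spread, two-sided and adjusted over all 13773 genes tested, and both comparisons with tumours share the tumour libraries. The values of the compared groups did not overlap for 34, 33 and 29 of the 39 genes in the same order, against 63.9%, 67.6% and 67.1% of all tested genes.

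The median log2 difference of the 39 genes was -0.30, -0.84 and -0.04 in these comparisons. Equal upper quartiles gave 25 lower and 9 higher for 3D bioink against tumours, and 13 lower and 18 higher between 3D bioink and 2D culture. The split between the cultures therefore turned with the scaling, with 15 lower and 16 higher under quantile normalization, while those against the tumours did not. Over all genes, equal upper quartiles changed 3737 higher and 5132 lower into 4716 and 3855 for 3D bioink against tumours, and 3713 and 4435 into 4814 and 3193 between 3D bioink and 2D culture. Quantile normalization changed 3761 higher and 3713 lower into 4489 and 3058 for 2D culture against tumours, and gave 4435 and 4229 for 3D bioink against tumours. Without replicate 1 of the 3D bioink, 28 genes were lower and 8 higher than in tumours. Less the median of all genes in the same bin of exon length, the median of the 39 was -0.27, -0.43 and -0.01.

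**Figure D1:**
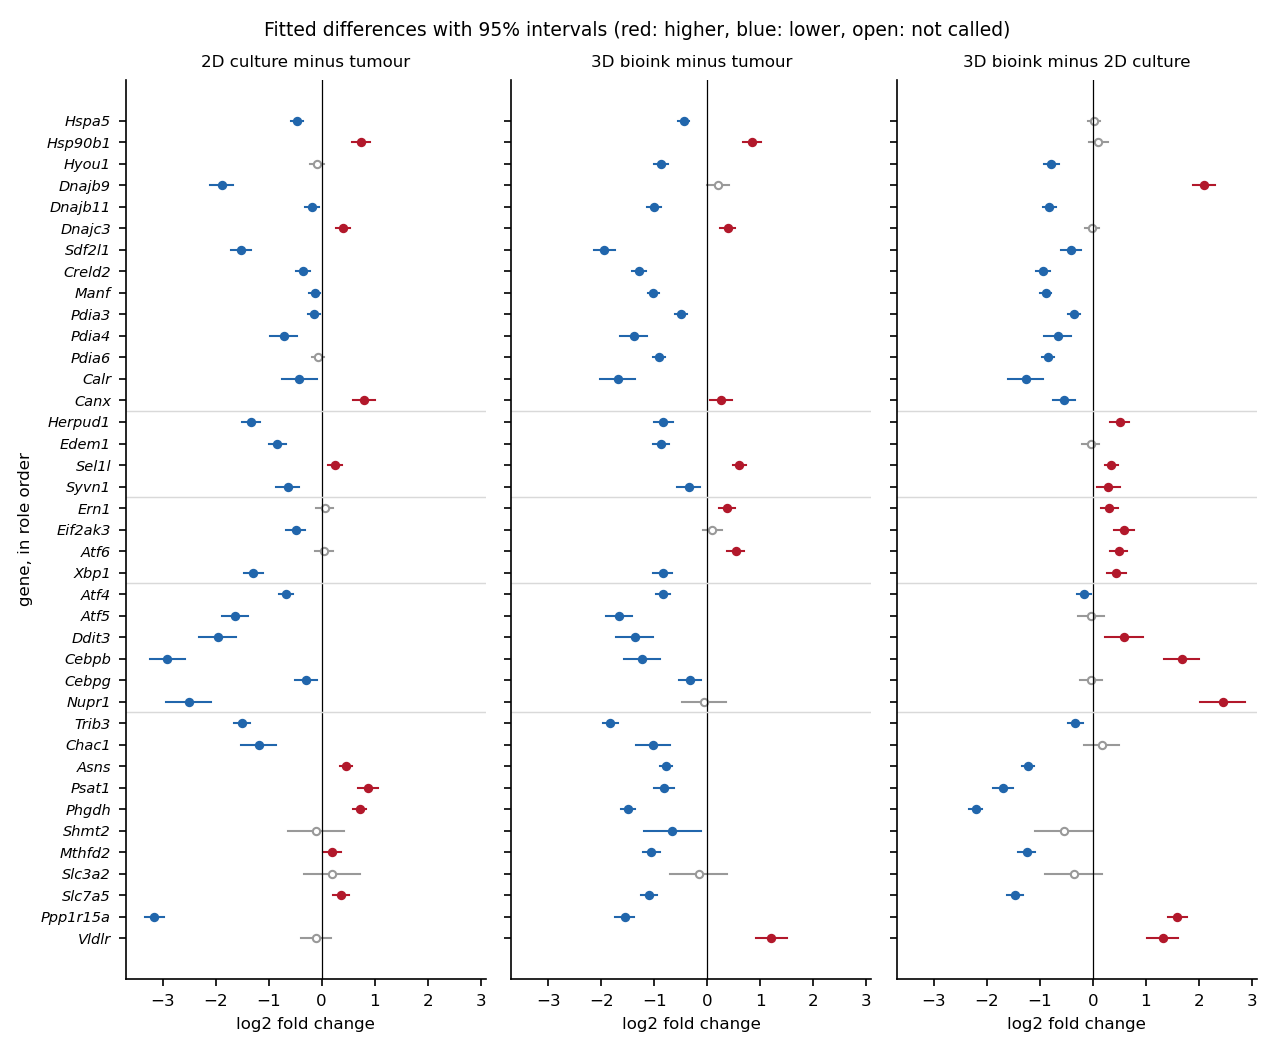
Fitted log2 differences of the 39 genes (x axis) in role order (y axis) for the 3 comparisons, with 95% intervals from limma; filled red points were called higher, filled blue points lower, and open grey points were not called. The factors of the integrated stress response lie left of 0 in 2D culture against tumours, and the genes from Asns to Slc7a5 lie right of 0 or span it in 2D culture against tumours, and lie left of 0 in the other comparisons, except that Slc3a2 spans 0 in both and Shmt2, whose unadjusted interval ends just under 0, was not called between the cultures.

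The groups differed in where their members were highest. Of the 14 folding genes 10 had their highest mean in the tumours, 2 in 3D bioink and 2 in 2D culture. Of the 11 ATF4 targets 4 were highest in the tumours, 6 in 2D culture and 1 in 3D bioink. All 6 factors of the integrated stress response were highest in the tumours, and 3 of the 4 sensors and their factors in 3D bioink. The highest mean is a description and was not tested.

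ER chaperones and folding enzymes were lower in 3D bioink than in both other groups. Of 14 genes, 10 were lower and 3 higher in 3D bioink than in tumours (71.4% and 21.4%, against 37.3% and 27.1% of all tested genes), with a median log2 difference of -0.90 against -0.11 for all tested genes. Against 2D culture 10 were lower and 1 was higher (71.4% and 7.14%, against 32.2% and 27.0%), with a median of -0.60 against -0.02. In 2D culture against tumours 9 were lower and 3 higher (64.3% and 21.4%, against 27.0% and 27.3%), but with a median of only -0.17. The directions of these 3 medians held under all 3 other scalings. The count of higher genes in 3D bioink against 2D culture went from 1 to 4 with equal upper quartiles, 3 with quantile normalization and 2 without replicate 1 of the 3D bioink. Lower calls against 2D culture were lost for Sdf2l1 and Pdia3 with equal upper quartiles (adjusted p = 0.0870 and 0.0590), and for Pdia3 under quantile normalization. Against tumours, Hspa5 and Pdia3 lost the lower call in 3D bioink under quantile normalization. Less the median of genes of like length, the medians were -0.62, -0.38 and -0.13.

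Hspa5 and Hsp90b1 went opposite ways in 2D culture against tumours. Hspa5, which encodes BiP, the Hsp70 chaperone that holds the sensors inactive (chromosome 2, 34771970 to 34777547, GRCm38), ranged from 21700 to 23383 in tumours, 15954 to 16735 in 2D culture and 15965 to 16894 in 3D bioink. It was 1.38-fold lower in 2D culture than in tumours (log2 -0.46, SE 0.05, adjusted p = 1.98e-05) and 1.36-fold lower in 3D bioink (log2 -0.44, SE 0.05, adjusted p = 2.34e-05). Under quantile normalization the second difference was 0.05, the opposite sign, with an adjusted p of 0.344. Hsp90b1, which encodes GRP94, the Hsp90 of the ER (chromosome 10, 86690209 to 86705509), had 12245, 12822 and 13432 in tumours, 21521, 21742 and 21020 in 2D culture with 20185, 25055 and 24199 in 3D bioink. Every culture library lay above every tumour library. It was 1.67-fold higher in 2D culture (log2 0.74, SE 0.08, adjusted p = 2.31e-05) and 1.80-fold higher in 3D bioink (log2 0.85, SE 0.08, adjusted p = 7.72e-06).

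The ratio of Hsp90b1 to Hspa5 within a library, chosen after the values were seen, ran from 0.524 to 0.610 in tumours, 1.29 to 1.36 in 2D culture and 1.26 to 1.51 in 3D bioink. A ratio within a library is not changed by a single scaling factor per library, but is changed by quantile normalization. Between the cultures neither gene passed, with differences of 0.02 for Hspa5 (95% interval -0.08 to 0.13) and 0.11 for Hsp90b1 (-0.07 to 0.28) on the log2 scale. These calls depended on the scaling. Higher levels in 3D bioink passed for Hspa5 at 0.33 under quantile normalization (adjusted p = 0.00016) and 0.25 with equal upper quartiles (adjusted p = 0.00819). For Hsp90b1 they passed at 0.29 and 0.34 under the same settings (adjusted p = 0.00675 and 0.0161), at 0.19 with median-of-ratios size factors (adjusted p = 0.0485), at 0.17 with array weights (adjusted p = 0.00342), and at 0.20 without replicate 1 of the 3D bioink (adjusted p = 0.00423). Exons of a gene model on the other strand cover 10.3% of the exon bases of Hsp90b1, and whether reads were assigned by strand is not given in the sources used here.

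Hyou1, the exchange factor that helps release BiP from its clients, had 11568, 11754 and 11816 in tumours, 10940, 10760 and 11371 in 2D culture with 5822, 6914 and 6503 in 3D bioink. It separated the bioink from both other groups, 1.83-fold below tumours (log2 -0.87, SE 0.06, adjusted p = 1.34e-06) and 1.72-fold below 2D culture (log2 -0.78, SE 0.06, adjusted p = 3.38e-06). The 2D libraries all lay under the tumour libraries, but the difference of -0.09 did not pass the test (adjusted p = 0.260).

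The J-domain cofactors of BiP followed different courses. Dnajb9, which encodes ERdj4, a cofactor that also restrains IRE1 (chromosome 12, 44205559 to 44210326), had 799, 840 and 751 in tumours, 204, 222 and 216 in 2D culture with 993, 827 and 947 in 3D bioink. It was 3.71-fold lower in 2D culture than in tumours (log2 -1.89, SE 0.09, adjusted p = 1.24e-07) and 4.29-fold higher in 3D bioink than in 2D culture (log2 2.10, SE 0.09, adjusted p = 1.05e-07). Tumours and 3D bioink overlapped, and their difference of 0.21 did not pass (adjusted p = 0.0770). Without replicate 2 of the 3D bioink it was 0.28 and passed (adjusted p = 0.0286), as it did at 0.39 under quantile normalization, 0.45 with equal upper quartiles, 0.30 with median-of-ratios size factors and 0.22 with array weights. Dnajb11, a cofactor that binds unfolded clients, had 2738, 2769 and 3020 in tumours, 2501, 2585 and 2425 in 2D culture with 1379, 1416 and 1451 in 3D bioink. Here 3D bioink was lowest and tumours highest, with the bioink 2.01-fold below tumours (adjusted p = 2.90e-07). Dnajc3, a cofactor once described as an inhibitor of eIF2alpha kinases, ranged from 939 to 1006 in tumours, 1255 to 1324 in 2D culture and 1222 to 1329 in 3D bioink. It was 1.33-fold higher in 2D culture (adjusted p = 0.000316) and 1.31-fold higher in 3D bioink (adjusted p = 0.000341), and with equal upper quartiles also higher in 3D bioink than in 2D culture, by 0.21 (adjusted p = 0.0171).

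Sdf2l1, which works with Dnajb11 to keep clients soluble, had the largest fall of the folding genes in 3D bioink. Its values were 1239, 1186 and 1132 in tumours, 400, 442 and 394 in 2D culture with 325, 297 and 303 in 3D bioink, with no overlap between any 2 groups. The 3D bioink was 3.84-fold below tumours (log2 -1.94, SE 0.08, adjusted p = 6.19e-08). Unlike most folding genes, Sdf2l1 was already 2.88-fold lower in 2D culture (log2 -1.52, SE 0.08, adjusted p = 2.68e-07).

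Creld2 and Manf encode ER stress proteins that can be secreted. Creld2 had 2165, 2261 and 2262 in tumours, 1691, 1706 and 1848 in 2D culture with 951, 878 and 901 in 3D bioink. Manf had 3776, 3572 and 3517 in tumours, 3298, 3285 and 3347 in 2D culture with 1780, 1767 and 1820 in 3D bioink. Both fell in steps from tumours through 2D culture to 3D bioink with no overlap, the step to 3D bioink being the larger. In 3D bioink Creld2 was 2.45-fold (log2 -1.29, SE 0.06, adjusted p = 8.52e-08) and Manf 2.02-fold below tumours (log2 -1.02, SE 0.05, adjusted p = 8.21e-08).

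The disulfide isomerases Pdia4, Pdia6 and Pdia3 (ERp57), which make and exchange disulfide bonds, were all lowest in 3D bioink. Pdia4 had 16784, 18115 and 19196 in tumours, 10910, 11052 and 10834 in 2D culture with 5579, 7958 and 7383 in 3D bioink. Pdia6 had 8358, 7990 and 7986 in tumours, 7801, 7757 and 7615 in 2D culture with 4032, 4378 and 4480 in 3D bioink. For both, every bioink library lay below every other library, and of the pair only Pdia4 was called lower in 2D culture than in tumours. In 3D bioink Pdia4 was 2.61-fold (log2 -1.39, SE 0.11, adjusted p = 3.66e-06) and Pdia6 1.89-fold below tumours (log2 -0.92, SE 0.05, adjusted p = 2.42e-07). Pdia3 ranged from 11134 to 11900 in tumours and 7887 to 8623 in 3D bioink, 1.41-fold lower (adjusted p = 1.52e-05). Under quantile normalization its difference from tumours in 3D bioink was -0.05 (adjusted p = 0.512), and its difference from 2D culture turned from -0.35 to 0.01.

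The lectin chaperones of the glycoprotein cycle parted. Calr, which encodes the soluble calreticulin (chromosome 8, 84841850 to 84846934), had 44162, 51165 and 51026 in tumours, 34998, 36985 and 37117 in 2D culture with 11376, 18292 and 16519 in 3D bioink. Canx, which encodes its membrane-bound relative calnexin (chromosome 11, 50293961 to 50325673), had 12003, 13945 and 14762 in tumours, 22702, 23882 and 23934 in 2D culture with 14205, 17640 and 16937 in 3D bioink. Calr was highest in the tumours and Canx in 2D culture. Calr was 3.22-fold lower in 3D bioink than in tumours (log2 -1.69, SE 0.15, adjusted p = 5.91e-06), and Canx was 1.74-fold higher in 2D culture than in tumours (log2 0.80, SE 0.09, adjusted p = 5.36e-05). The ratio of Canx to Calr, also chosen after the values were seen, was 0.272 to 0.289 in tumours, 0.645 to 0.649 in 2D culture and 0.964 to 1.25 in 3D bioink. Per kilobase of merged exon, the mean level in tumours was 16939 for Calr, 7516 for Pdia4, 5290 for Hspa5, 3669 for Pdia3 and 3183 for Hsp90b1, so Calr led this group on that scale.

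Several smaller differences among the folding genes were called with adjusted p of 0.0201 to 0.0396, and these calls were lost without 1 or another library. In 2D culture against tumours, the number of lower genes fell from 9 to 5 without replicate 1 of the 2D culture. Manf (-0.13, adjusted p = 0.0396) gave adjusted p = 0.122 and 0.0649 without tumour replicates 1 and 2, 0.102, 0.112 and 0.0757 without 2D replicates 1, 2 and 3, and 0.0549 without 3D bioink replicate 3. Calr (-0.42, adjusted p = 0.0360) gave 0.102 and 0.0999 without tumour replicates 2 and 3, and 0.0960, 0.0730 and 0.0696 without 2D replicates 1, 2 and 3. Pdia3 (-0.15, adjusted p = 0.0277) gave 0.0634 and 0.0933 without tumour replicates 1 and 3, and 0.0973 and 0.0703 without 2D replicates 1 and 2. Dnajb11 (-0.18, adjusted p = 0.0201) gave 0.0716 without tumour replicate 3, and 0.0564 and 0.0766 without 2D replicates 1 and 3. The higher level of Canx in 3D bioink than in tumours (0.26, adjusted p = 0.0334), whose values overlapped, gave 0.128 and 0.0555 without tumour replicates 1 and 2, and 0.111 and 0.102 without 3D bioink replicates 2 and 3.

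**Figure D2:**
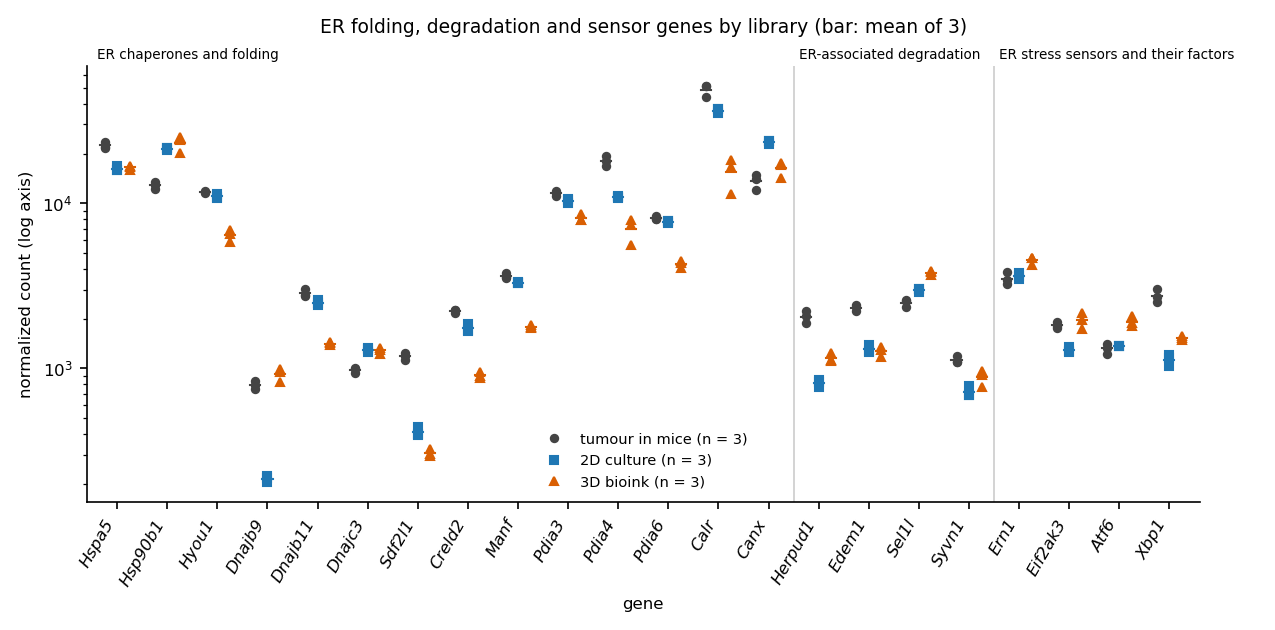
Normalized counts (log axis) of the folding, degradation and sensor genes (x axis) in each library, with a bar at the mean of 3; circles are tumours, squares 2D culture and triangles 3D bioink. The 3D bioink triangles of Hyou1, Dnajb11, Creld2, Manf, Pdia4, Pdia6 and Calr lie under all other points, and the squares of Dnajb9 lie at 204 to 222, under both other groups.

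The folding genes with an ER stress element in their promoter window did not move as one. Of these 7, Calr, Creld2, Hspa5 and Pdia6 were lower in 3D bioink than in tumours, and Canx, Dnajc3 and Hsp90b1 were higher. Those 3 are also the folding genes called higher in 2D culture against tumours. The matches describe the promoter letters and were not tested against the differences.

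Genes of ER-associated degradation, which returns misfolded proteins to the cytosol for the proteasome, were mostly lower in the cultures. Of 4 genes 3 were lower and Sel1l was higher in both cultures than in tumours. Of all tested genes, 27.0% were lower in 2D culture and 37.3% in 3D bioink than in tumours. Between the cultures 3 of the 4 were higher in 3D bioink, where 27.0% of all tested genes were higher. The medians were -0.74, -0.59 and 0.32, and -0.75, -0.22 and 0.17 less the median of genes of like length. Herpud1, a membrane protein that helps assemble the degradation complex (chromosome 8, 94386438 to 94395377), had 2230, 2068 and 1888 in tumours, 775, 846 and 829 in 2D culture with 1109, 1247 and 1130 in 3D bioink. The groups did not overlap, and 2D culture was lowest. It was 2.52-fold lower in 2D culture (log2 -1.33, SE 0.08, adjusted p = 4.09e-07) and 1.77-fold lower in 3D bioink than in tumours (log2 -0.83, SE 0.08, adjusted p = 1.07e-05). It was 1.42-fold higher in 3D bioink than in 2D culture (adjusted p = 0.000365).

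Edem1, which directs misfolded glycoproteins to degradation, had 2426, 2349 and 2218 in tumours, 1279, 1383 and 1257 in 2D culture with 1351, 1175 and 1294 in 3D bioink. The cultures overlapped, although with equal upper quartiles Edem1 was higher in 3D bioink than in 2D culture by 0.19 (adjusted p = 0.0396). Both lay lower than tumours, at 1.78-fold below tumours for 2D culture (adjusted p = 5.13e-06) and 1.83-fold for 3D bioink (adjusted p = 3.38e-06). Syvn1 and Sel1l encode the ubiquitin ligase HRD1 and its partner, and they went opposite ways. Syvn1 had 1089, 1093 and 1197 in tumours, 782, 690 and 692 in 2D culture with 964, 914 and 775 in 3D bioink, and was 1.56-fold lower in 2D culture (adjusted p = 0.000281). Sel1l had 2341, 2607 and 2562 in tumours, 3035, 2888 and 3009 in 2D culture with 3658, 3859 and 3877 in 3D bioink, and was 1.52-fold higher in 3D bioink (log2 0.60, SE 0.06, adjusted p = 8.28e-06). Sel1l stepped upward from tumours to 2D culture to 3D bioink with no overlap.

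For Syvn1 the rise of 0.29 from 2D culture to 3D bioink (adjusted p = 0.0252) came with overlapping values. It gave adjusted p = 0.0830 and 0.0802 without 2D replicates 2 and 3, and 0.0717 and 0.0714 without 3D bioink replicates 1 and 2. Its lower level in 3D bioink than in tumours (-0.35, adjusted p = 0.00888) was -0.18 under quantile normalization and -0.11 with equal upper quartiles, with adjusted p of 0.149 and 0.307.

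All 4 sensors and their factors were higher in 3D bioink than in 2D culture, against 27.0% of all tested genes. The median log2 difference was 0.47 against -0.02 for all tested genes. The count of higher genes was 4 under every scaling and every omission of 1 library. Against tumours, 2 were higher and 1 lower in 3D bioink, where 27.1% of all tested genes were higher and 37.3% lower. In 2D culture against tumours 0 were higher and 2 lower, against 27.3% and 27.0% of all tested genes. With only 4 genes, the counts against tumours were not tested against these shares. The median of 0.23 for 3D bioink against tumours was -0.03 less the median of genes of like length. The 2 higher genes, Ern1 and Atf6, have merged exon lengths of 8173 and 9231 bases.

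Ern1, the sensor kinase and nuclease IRE1, ranged from 3251 to 3816 in tumours, 3476 to 3774 in 2D culture and 4225 to 4677 in 3D bioink. Atf6 ranged from 1228 to 1411 in tumours, 1363 to 1367 in 2D culture and 1797 to 2086 in 3D bioink. Both overlapped between tumours and 2D culture and lay higher in 3D bioink. Against 2D culture, Ern1 was higher by 0.32 on the log2 scale (SE 0.07, adjusted p = 0.00322) and Atf6 1.40-fold higher (log2 0.49, SE 0.07, adjusted p = 0.000274). Eif2ak3, which encodes the eIF2alpha kinase PERK, had 1753, 1916 and 1795 in tumours, 1276, 1260 and 1348 in 2D culture with 1737, 2160 and 1973 in 3D bioink. It was lowest in 2D culture, 1.41-fold below tumours (adjusted p = 0.000553), and 1.51-fold higher in 3D bioink (log2 0.59, SE 0.08, adjusted p = 0.000155). Its difference of 0.10 between 3D bioink and tumours did not pass (adjusted p = 0.309), but did at 0.18 without replicate 1 of the 3D bioink (adjusted p = 0.0347), at 0.28 under quantile normalization (adjusted p = 0.0108) and at 0.34 with equal upper quartiles (adjusted p = 0.0128).

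Xbp1, the factor whose mRNA IRE1 splices (chromosome 11, 5520659 to 5525893), had 3041, 2716 and 2534 in tumours, 1161, 1200 and 1029 in 2D culture with 1496, 1535 and 1580 in 3D bioink. It behaved unlike the 3 sensors, with tumours far above both cultures and no overlap. It was 2.44-fold lower in 2D culture (log2 -1.29, SE 0.08, adjusted p = 6.50e-07) and 1.79-fold lower in 3D bioink than in tumours (log2 -0.84, SE 0.08, adjusted p = 1.16e-05). Plasma cells carry much Xbp1. Of the 3 plasma and B cell markers that passed the filter, Jchain was lower and Sdc1 higher in both cultures than in tumours, and Cd79a lower only in 2D culture. Mzb1 and Pou2af1, below the filter, were at 0 in both cultures. The summed macrophage, monocyte and microglial markers were lower in both cultures. The part of any of these cells in the difference of Xbp1 was not tested.

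The 6 transcription factors of the integrated stress response were the group most uniformly lower in 2D culture. All 6 were lower than in tumours, against 27.0% of all tested genes, with a median log2 difference of -1.80 against 0.01. Values did not overlap for 6 of 6, against 63.9% of all tested genes. In 3D bioink 5 were lower than in tumours (83.3%, against 37.3% of all tested genes), with a median of -1.03. In 3D bioink against 2D culture 3 were higher and 1 lower (50.0% and 16.7%, against 27.0% and 32.2%), with a median of 0.28. The signs of the 3 medians held under every scaling. Less the median of genes of like length they were -1.72, -0.50 and 0.69.

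Atf4, the central factor (chromosome 15, 80255184 to 80257541), had 10161, 10604 and 10567 in tumours, 6548, 6701 and 6393 in 2D culture with 5354, 5982 and 6229 in 3D bioink. It was 1.59-fold lower in 2D culture (log2 -0.67, SE 0.06, adjusted p = 6.36e-06) and 1.79-fold lower in 3D bioink than in tumours (log2 -0.84, SE 0.06, adjusted p = 1.29e-06). The cultures lay close to each other. Their difference of -0.16 (adjusted p = 0.0356) turned to 0.17 under quantile normalization (adjusted p = 0.0306) and 0.07 with equal upper quartiles. It gave adjusted p = 0.0513 without tumour replicate 2, 0.0812, 0.111 and 0.0542 without 2D replicates 1, 2 and 3, and 0.0570 without 3D bioink replicate 1. ATF4 is controlled mainly at translation, which RNA levels do not show.

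Atf5, a relative of ATF4 with a similar translational control, had 2239, 2384 and 2478 in tumours, 801, 728 and 750 in 2D culture with 892, 716 and 649 in 3D bioink. It was about as low in both cultures, 3.11-fold below tumours in 2D culture (log2 -1.64, SE 0.11, adjusted p = 9.06e-07) and 3.17-fold in 3D bioink (log2 -1.66, SE 0.11, adjusted p = 8.00e-07). The interval of the difference between the cultures was -0.27 to 0.22 on the log2 scale, and with array weights Atf5 was lower in 3D bioink than in 2D culture, at -0.19 (adjusted p = 0.0305). Cebpg, a C/EBP partner of ATF4, moved least, ranging from 1109 to 1210 in tumours, 927 to 972 in 2D culture and 853 to 1078 in 3D bioink. Its difference of -0.30 in 2D culture (adjusted p = 0.0219) gave adjusted p = 0.0589 and 0.0671 without tumour replicates 2 and 3, and 0.0684 and 0.0560 without 2D replicates 1 and 2. Its difference of -0.33 in 3D bioink against tumours (adjusted p = 0.0104) was -0.16 under quantile normalization and -0.09 with equal upper quartiles, neither of which passed.

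Ddit3, Cebpb and Nupr1 were lowest in 2D culture. Ddit3, which encodes the death-promoting factor CHOP (chromosome 10, 127290774 to 127296288), had 2895, 3034 and 3044 in tumours, 773, 789 and 739 in 2D culture with 843, 1353 and 1360 in 3D bioink. It was 3.90-fold lower in 2D culture (log2 -1.96, SE 0.16, adjusted p = 3.53e-06) and 2.58-fold lower in 3D bioink than in tumours (log2 -1.37, SE 0.16, adjusted p = 3.83e-05). The bioink library of replicate 1 lay near the 2D libraries. With all libraries Ddit3 was 1.51-fold higher in 3D bioink than in 2D culture (adjusted p = 0.00874).

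Cebpb, a C/EBP factor that also serves inflammatory and myeloid programmes (chromosome 2, 167688915 to 167690418), had 4756, 4271 and 3361 in tumours, 587, 444 and 609 in 2D culture with 1882, 1746 and 1603 in 3D bioink. It was 7.54-fold lower in 2D culture (log2 -2.91, SE 0.15, adjusted p = 1.44e-07) and 2.35-fold lower in 3D bioink than in tumours (log2 -1.23, SE 0.15, adjusted p = 5.16e-05). The bioink stood between the other groups, 3.21-fold above 2D culture (log2 1.68, SE 0.15, adjusted p = 7.29e-06). Of 12 macrophage and monocyte markers, 9 were higher in 3D bioink than in 2D culture and 1, Plac8, was lower (27.0% and 32.2% of all tested genes). Against tumours 12 were lower in 2D culture and 11 in 3D bioink (27.0% and 37.3% of all tested genes). Ccr2, one of the 9, stood at 31 to 111 in 3D bioink and 43 to 51 in tumours. The part of these cells in the difference of Cebpb was not tested. Exons of Tmem189 on the other strand cover 20.7% of the exon bases of Cebpb.

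Nupr1, a small stress-induced chromatin protein, had 481, 368 and 503 in tumours, 64, 79 and 92 in 2D culture with 469, 356 and 469 in 3D bioink. Only 2D culture stood apart, 5.70-fold below tumours (log2 -2.51, SE 0.19, adjusted p = 2.23e-06). The 3D bioink was 5.46-fold above 2D culture (log2 2.45, SE 0.19, adjusted p = 3.02e-06) and overlapped the tumours, with an interval of -0.49 to 0.36 for that difference. Nupr1 and Dnajb9 are the 2 members, picked after their values were seen, in which 3D bioink overlapped tumours while 2D culture lay several-fold lower.

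**Figure D3:**
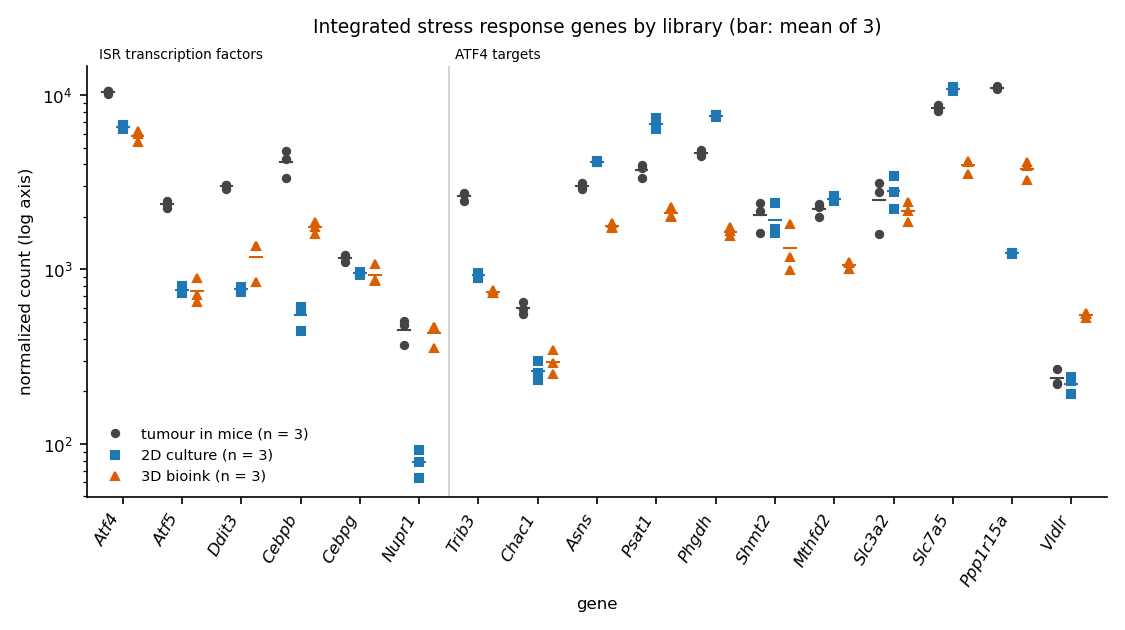
Normalized counts (log axis) of the factors of the integrated stress response and the ATF4 targets (x axis) in each library, with a bar at the mean of 3; circles are tumours, squares 2D culture and triangles 3D bioink. Squares of Ddit3, Cebpb, Nupr1 and Ppp1r15a lie under both other groups, whereas squares of Asns, Psat1, Phgdh and Slc7a5 lie above both.

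The ATF4 targets did not move as one. Of 11 targets 5 were higher and 3 lower in 2D culture than in tumours (45.5% and 27.3%, against 27.3% and 27.0% of all tested genes), so the lower share was at that of all genes. In 3D bioink 1 was higher and 9 lower than in tumours (9.09% and 81.8%, against 27.1% and 37.3%), and 2 were higher and 6 lower than in 2D culture (18.2% and 54.5%, against 27.0% and 32.2%). The medians were 0.19, -1.03 and -0.55, against 0.01, -0.11 and -0.02 for all tested genes, and 0.24, -0.68 and -0.34 less the median of genes of like length. The 7 targets in amino acid and one-carbon supply, a split made after the values were seen, had 5 higher and 0 lower in 2D culture than in tumours, 0 higher and 6 lower in 3D bioink than in tumours, and 0 higher and 5 lower in 3D bioink than in 2D culture. Under quantile normalization and equal upper quartiles these counts were 4 and 0, 0 and 5, and 0 and 5. The 18 other ATF4 targets in amino acid supply, given below, did not share the rise in 2D culture against tumours. Of those, 4 were higher and 8 lower (22.2% and 44.4%, against 27.3% and 27.0% of all tested genes).

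Asns, the asparagine synthetase (chromosome 6, 7675169 to 7693254), had 3019, 2904 and 3146 in tumours, 4144, 4109 and 4170 in 2D culture with 1717, 1750 and 1842 in 3D bioink. Phgdh, the first enzyme of serine synthesis (chromosome 3, 98313170 to 98339990), had 4871, 4470 and 4577 in tumours, 7716, 7505 and 7652 in 2D culture with 1546, 1747 and 1651 in 3D bioink. Psat1, which catalyses the next step of serine synthesis (chromosome 19, 15904678 to 15947337), had 3991, 3825 and 3332 in tumours, 7393, 6579 and 6393 in 2D culture with 2277, 2008 and 2021 in 3D bioink. In all 3 genes 2D culture was highest, 3D bioink lowest and tumours between, with no overlap.

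Phgdh had the largest difference between the cultures of all 39 genes in the downward direction, 4.63-fold lower in 3D bioink (log2 -2.21, SE 0.06, adjusted p = 3.99e-09). Against tumours it was 1.64-fold higher in 2D culture (log2 0.72, SE 0.06, adjusted p = 3.20e-06) and 2.82-fold lower in 3D bioink (log2 -1.49, SE 0.06, adjusted p = 2.55e-08). Psat1 was 1.83-fold higher in 2D culture than in tumours (log2 0.87, SE 0.09, adjusted p = 1.48e-05) and 3.23-fold lower in 3D bioink than in 2D culture (log2 -1.69, SE 0.09, adjusted p = 1.97e-07). Asns was 1.37-fold higher in 2D culture than in tumours (log2 0.45, SE 0.05, adjusted p = 3.48e-05) and 2.34-fold lower in 3D bioink than in 2D culture (log2 -1.23, SE 0.05, adjusted p = 6.39e-08).

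Mthfd2 and Shmt2 encode enzymes of mitochondrial one-carbon metabolism. Mthfd2 had 2291, 2004 and 2360 in tumours, 2647, 2498 and 2457 in 2D culture with 1003, 1091 and 1103 in 3D bioink, and was 2.08-fold lower in 3D bioink than in tumours (log2 -1.05, SE 0.07, adjusted p = 1.26e-06). Shmt2 had 2415, 2157 and 1616 in tumours, 1715, 2400 and 1624 in 2D culture with 1830, 1180 and 992 in 3D bioink, and the groups overlapped. Mthfd2 followed the order of Asns, whereas no pair of groups was free of overlap for Shmt2.

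Calls for both lay near the threshold and changed without 1 or another library. The difference of Mthfd2 in 2D culture (0.19, adjusted p = 0.0478) gave adjusted p = 0.0591 and 0.166 without tumour replicates 1 and 2, 0.153, 0.0914 and 0.0700 without 2D replicates 1, 2 and 3, and 0.0560 and 0.0602 without 3D bioink replicates 2 and 3. Shmt2 in 3D bioink against tumours (-0.66, adjusted p = 0.0340) gave 0.118 and 0.0892 without tumour replicates 1 and 2, and 0.0921 and 0.125 without 3D bioink replicates 2 and 3. Against 2D culture Shmt2 did not pass (-0.55, adjusted p = 0.0729), but did at -0.80 without 3D bioink replicate 1 (adjusted p = 0.0083), at -0.90 with array weights (adjusted p = 0.000532), and with the replicate number as a block (adjusted p = 0.0299).

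Slc7a5 and Slc3a2 encode LAT1 and its heavy chain, which together exchange large neutral amino acids. Slc7a5 (chromosome 8, 121881150 to 121907694) had 8425, 8799 and 8137 in tumours, 11018, 10564 and 11060 in 2D culture with 3533, 4178 and 4120 in 3D bioink. Slc3a2 ranged from 1606 to 3115 in tumours, 2218 to 3411 in 2D culture and 1877 to 2430 in 3D bioink. The transporter subunit separated the groups and the heavy chain did not. Slc7a5 was 1.29-fold higher in 2D culture (adjusted p = 0.00114) and 2.15-fold lower in 3D bioink than in tumours (log2 -1.10, SE 0.07, adjusted p = 4.95e-07), and 2.77-fold lower in 3D bioink than in 2D culture (log2 -1.47, SE 0.07, adjusted p = 1.14e-07). For Slc3a2 the intervals of the 3 differences, in the order of the comparisons, were -0.34 to 0.73, -0.70 to 0.37 and -0.89 to 0.17 on the log2 scale. Without tumour replicate 3, the lowest of its group at 1606, Slc3a2 was lower in 3D bioink than in tumours by 0.46 on that scale, a value of -0.46 with adjusted p = 0.0477.

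The targets that act on stress signalling and not on amino acids were lower in both cultures. Trib3, a pseudokinase that binds ATF4 and CHOP (chromosome 2, 152337422 to 152344032), had 2710, 2473 and 2754 in tumours, 897, 939 and 959 in 2D culture with 729, 733 and 764 in 3D bioink. It was 2.84-fold lower in 2D culture (log2 -1.50, SE 0.06, adjusted p = 3.82e-08) and 3.56-fold lower in 3D bioink than in tumours (log2 -1.83, SE 0.06, adjusted p = 1.40e-08). Chac1, which degrades glutathione, had 649, 591 and 556 in tumours, 298, 256 and 233 in 2D culture with 344, 291 and 251 in 3D bioink. It was 2.28-fold lower in 2D culture (log2 -1.19, SE 0.14, adjusted p = 6.36e-05) and 2.04-fold lower in 3D bioink than in tumours (log2 -1.03, SE 0.14, adjusted p = 0.000147). The cultures overlapped for Chac1, with an interval of -0.16 to 0.49, and with equal upper quartiles 3D bioink was higher by 0.40 (adjusted p = 0.0331).

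Ppp1r15a, which encodes GADD34 (chromosome 7, 45522916 to 45526268), had the largest difference of the 39 genes in 2D culture against tumours. Its values were 11283, 10920 and 10881 in tumours, 1232, 1235 and 1239 in 2D culture with 3261, 4122 and 3903 in 3D bioink, and no groups overlapped. It was 8.92-fold lower in 2D culture than in tumours (log2 -3.16, SE 0.08, adjusted p = 1.07e-09), 2.95-fold lower in 3D bioink than in tumours (log2 -1.56, SE 0.08, adjusted p = 1.37e-07), and 3.03-fold higher in 3D bioink than in 2D culture (log2 1.60, SE 0.08, adjusted p = 1.58e-07). The early response genes had the same order of summed levels, tumours above 3D bioink above 2D culture, although Klf2, Klf4 and Klf6 were higher in 3D bioink than in tumours.

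Vldlr, a lipoprotein receptor (chromosome 19, 27216484 to 27254231), went against the other targets. It had 221, 268 and 224 in tumours, 241, 228 and 192 in 2D culture with 525, 558 and 565 in 3D bioink. Only the bioink stood apart, 2.31-fold above tumours (log2 1.21, SE 0.13, adjusted p = 2.10e-05) and 2.50-fold above 2D culture (log2 1.32, SE 0.13, adjusted p = 1.40e-05). Its merged exon length of 10068 bases is the longest of the 39 genes.

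Ratios of 2 genes of the integrated stress response within a library do not depend on a single factor that scales the library. The pairs were chosen after the values were seen and are given with no test. Asns over Ddit3 was 0.957 to 1.04 in tumours, 5.21 to 5.64 in 2D culture and 1.29 to 2.04 in 3D bioink. Ppp1r15a over Atf4 was 1.03 to 1.11 in tumours, 0.184 to 0.194 in 2D culture and 0.609 to 0.689 in 3D bioink. Thus 2D culture carried more of the biosynthetic target relative to CHOP and less GADD34 relative to Atf4 than either other group.

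**Figure D4:**
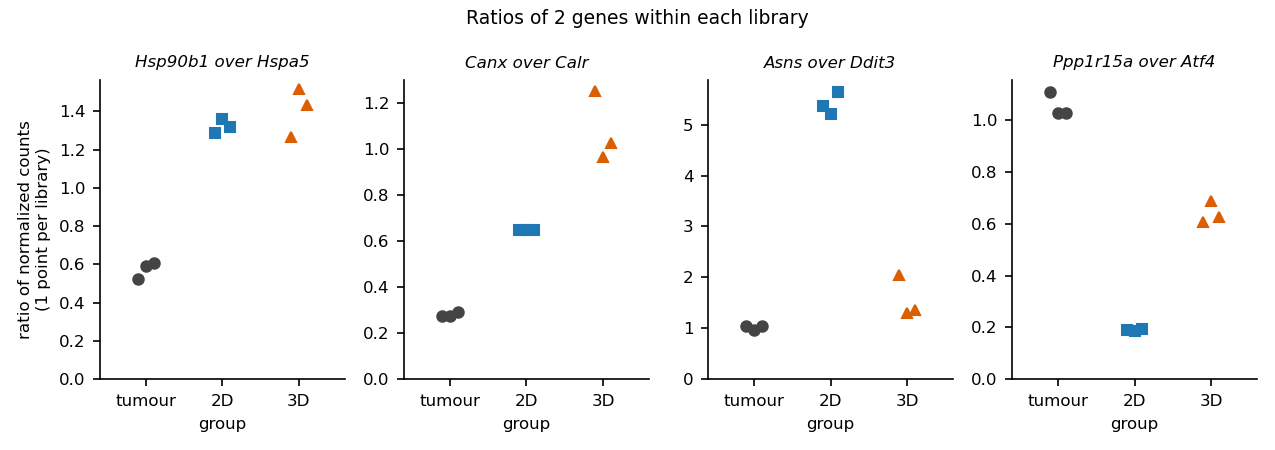
Ratios of 2 genes within each library (y axes, from 0), 1 point per library, for tumours, 2D culture and 3D bioink (x axes). Hsp90b1 over Hspa5 and Canx over Calr are lowest in the tumours, Asns over Ddit3 is highest in 2D culture at 5.21 to 5.64, and Ppp1r15a over Atf4 is lowest there at 0.184 to 0.194.

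Beyond the 39 genes, 114 other genes of these pathways were listed, of which 109 were in the table and 108 were tested. In 2D culture against tumours 33 were higher and 44 lower (30.6% and 40.7%, against 27.3% and 27.0% of all tested genes). In 3D bioink against tumours 22 were higher and 61 lower (20.4% and 56.5%, against 27.1% and 37.3%), and between 3D bioink and 2D culture 27 and 54 of the 108 (against 27.0% and 32.2%). The higher shares thus lay near those of all genes in 2D culture against tumours and between the cultures. Their medians were -0.10, -0.39 and -0.28, and the shares in the lists that follow are to be read against the same shares of all genes. Most lists split, as follows.

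Among 28 genes of folding, glycoprotein quality control and export, 7 were higher and 15 lower in 3D bioink than in tumours (53.6% lower), and 4 higher and 14 lower than in 2D culture (14.3% and 50.0%; 7 and 12 genes with equal upper quartiles). Ero1l, the oxidase that recharges the disulfide isomerases, stood out with 1615, 1642 and 1627 in tumours, 1351, 1415 and 1289 in 2D culture with 7588, 5263 and 5986 in 3D bioink. It went opposite to the isomerases, 3.81-fold higher in 3D bioink than in tumours (log2 1.93, SE 0.11, adjusted p = 3.57e-07). Erp29, an isomerase relative, was 2.88-fold lower in 3D bioink than in tumours (adjusted p = 2.94e-07), and the prolyl isomerase Fkbp11 was 3.60-fold lower than in 2D culture (adjusted p = 9.24e-06). In 2D culture against tumours 10 were higher and 10 lower (35.7% each), led by the reductase Dnajc10 (log2 0.97) and by Sil1, an exchange factor of BiP (log2 -0.84).

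Among the other 15 tested genes of ER-associated degradation, 4 were higher and 6 lower in 2D culture than in tumours (26.7% higher), the higher share being near that of all genes, and 2 higher and 8 lower in 3D bioink (13.3% and 53.3%). That last pair of counts became 6 and 6 with equal upper quartiles, and the higher count fell from 2 to 1 without tumour replicate 1 or 2 or 3D bioink replicate 1 or 3. The lectin Os9 had the largest fall in 2D culture (log2 -1.36) and the ATPase Vcp the largest rise (log2 0.65). In 3D bioink against tumours Edem3 was higher by 1.28 and Edem2 lower, at -1.03, so the relatives of Edem1 parted. Among 10 other genes of sensing and proteolytic activation, 4 were higher and 6 lower in 3D bioink than in tumours. Bax, which permits mitochondrial death signals, was 3.01-fold lower there (adjusted p = 2.12e-05), and Creb3l1, a membrane-bound factor cut like ATF6, was higher by 0.95 (adjusted p = 0.000312). In 2D culture Tmbim6, an ER membrane protein that limits cell death, was 2.17-fold lower (adjusted p = 2.72e-07) and Mbtps2, a protease that cuts ATF6, was higher by 0.64 (adjusted p = 0.000344).

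Among 10 genes of the eIF2alpha kinases, phosphatase and eIF2B, the exchange factor that phosphorylated eIF2alpha blocks, 5 were higher and 3 lower in 2D culture than in tumours (50.0% and 30.0%, the lower share near that of all genes), and 6 were lower in 3D bioink than in 2D culture with 0 higher (2 higher with equal upper quartiles). Eif2b5 was 2.38-fold lower in 3D bioink than in 2D culture (adjusted p = 6.48e-07), Eif2b2 2.38-fold lower in 3D bioink than in tumours (adjusted p = 5.18e-06), and Eif2b1 higher in 2D culture than in tumours by 0.75 (adjusted p = 0.000154). The 3 lower genes in 2D culture became 1 without tumour replicate 1 or 3 or 2D replicate 1. Eif2b4 was one of them (-0.78, adjusted p = 0.0341), with 0.0791, 0.120 and 0.125 without those 3 libraries. Eif2ak4, the kinase GCN2 that senses uncharged tRNA, was the 1 gene higher in 3D bioink than in tumours (0.25, adjusted p = 0.0146), with 0.0609 without 3D bioink replicate 3. The count of higher genes there was 2 without tumour replicate 2 or 3D bioink replicate 1, and 3 with equal upper quartiles.

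Among 18 other ATF4 targets in amino acid supply, 12 were lower and 3 higher in 3D bioink than in tumours (66.7% and 16.7%), with a median of -1.03, and 11 lower and 3 higher than in 2D culture (61.1% and 16.7%). Slc7a11, the cystine importer, was among the higher with 377, 392 and 405 in tumours, 322, 275 and 275 in 2D culture with 1324, 1037 and 1126 in 3D bioink, 2.95-fold above tumours (adjusted p = 1.40e-06). Shmt1, the cytosolic partner of Shmt2, was 3.12-fold lower in 3D bioink than in 2D culture (adjusted p = 1.03e-07), and Cth, an enzyme of cysteine synthesis, 3.49-fold lower than in tumours (adjusted p = 6.70e-05). In 2D culture 4 were higher and 8 lower (22.2% and 44.4%), the 8 becoming 5 without tumour replicate 2 or 2D replicate 1 or 2, with Shmt1 highest (log2 0.59) and Sesn2, a leucine sensor, lowest (log2 -1.57).

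All 12 tRNA synthetases tested, which charge tRNA with amino acids, were lower in 3D bioink than in 2D culture, with a median of -0.87 against -0.02 for all tested genes, and 10 of 12 passed under quantile normalization or equal upper quartiles. Gars was 2.35-fold lower (log2 -1.24, SE 0.05, adjusted p = 6.26e-08). Against tumours, 6 were higher and 1 lower in 2D culture (50.0% and 8.33%) and 2 higher and 8 lower in 3D bioink (16.7% and 66.7%), with Lars higher by 1.20 and 0.65 and Wars, which interferon also induces, lower at -1.42 and -2.29.

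Most of the 15 stress outputs of ATF4 and CHOP were lowest in 2D culture. There 12 were lower than in tumours and 3 higher (80.0% and 20.0%), with a median of -1.97. The 3 higher were Ddit4, Tnfrsf10b and Stc2, a secreted glycoprotein listed at 0 in every tumour library, at 9, 9 and 5 in 2D culture and at 83, 64 and 76 in 3D bioink. Stc2 passed the filter on low values only through 3D bioink. Its calls against tumours rest on tumour values of 0 and, in 2D culture, on values of at most 9. In 3D bioink 13 were higher than in 2D culture and 1 lower (86.7% and 6.67%), with a median of 1.56. Atf3, a factor induced by many stresses, had 7490, 9109 and 9236 in tumours, 220, 402 and 223 in 2D culture with 3750, 4206 and 2917 in 3D bioink. It was 31.6-fold lower in 2D culture than in tumours (log2 -4.98, SE 0.22, adjusted p = 6.14e-08) and 13.2-fold higher in 3D bioink than in 2D culture (adjusted p = 5.83e-07). In 3D bioink against tumours 7 were lower and 3 higher (46.7% and 20.0%), with a median of -0.23 and with 5 higher under equal upper quartiles, among them the secreted Gdf15 at 3.84-fold lower (adjusted p = 2.53e-06) and Ddit4, an inhibitor of mTORC1, at 1.46-fold higher (adjusted p = 0.000413). Tnfrsf10b, a death receptor, was the exception between the cultures, 2.36-fold higher in 2D culture than in tumours (adjusted p = 0.00125) and lower in 3D bioink than in 2D culture. That second difference (-0.69, adjusted p = 0.0262) gave adjusted p = 0.0724 and 0.0878 without 2D replicates 1 and 3, and 0.0675 and 0.0538 without 3D bioink replicates 2 and 3. The early response genes given above were also lowest in 2D culture.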

How the data were processed

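RNA of 9 libraries in 3 groups was sequenced, and the authors deposited 1 table of normalized counts per gene symbol, rounded to whole numbers and treated here as a score with no further unit. The submitters' processing notes name kallisto, RSEM, DESeq, DESeq2 1.24.0 and mm10 with no role or order, and read depth and the use of strand in counting are not given in the sources used here. All 9 sample columns were mapped by their names, and 0 were left unused.

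Values were analysed as log2(value + 1), so fold changes of low genes are understated. Of 20778 symbols, 2865 were 0 throughout and 13773 had a mean of at least 10. Those were fitted with limma 3.58.1 (R 4.3.3), 1 mean per group over all 9 libraries, with a mean-variance trend, two-sided, Benjamini-Hochberg adjusted over all genes tested, threshold 0.05. The fit was tested on simulated data. Since the labels do not give separate mice or cultures, a p-value here reflects how far these libraries scatter, and that scatter can be technical.

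The members and lists were chosen with earlier results of these data known. All 39 are named, with per-library values for those called with at least 1.5-fold in a comparison. Of each other list, the called genes with the largest rise and fall per comparison (the higher group's mean being 100 or more) are named. The alternatives were 10 other settings and 9 omissions of 1 library. Those for the other lists and groups, and the comparison with exon length, were added after seeing the data. Exon lengths and coordinates came from GENCODE M21 (GRCm38, the mm10 build), promoters from RefSeq (GRCm38.p6). Tables and plots were made with Python 3.11.15, pandas 2.3.3 and matplotlib 3.10.9.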

Additional observations from a re-analysis of the deposited data

How the results depend on the processing

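Each of the 117 member differences (39 genes, 3 comparisons) was recomputed. With 1 library left out, 988 values kept direction and side of the threshold, 46 lost the call, 5 gained it and 14 changed sign. With equal upper quartiles 95 of 117 kept direction and side of the threshold. With the sign kept, 10 lost the call and 5 gained it, and 7 changed sign. Of those that changed sign, Dnajc3 and Edem1 between the cultures also gained a call, and Atf4 there lost its call. The cause was not tested. All sign changes but that of Hspa5, Pdia3 and Atf4 were in differences that had not passed.

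Under quantile normalization the log2 difference between 2D culture and tumours became 0.021 for Hyou1 and 0.11 for Vldlr. That between 3D bioink and tumours became 0.051 for Hspa5, 0.12 for Nupr1 and 0.043 for Slc3a2. That between the cultures became 0.15 for Dnajc3, 0.0077 for Pdia3, 0.14 for Edem1, 0.17 for Atf4, 0.12 for Atf5 and 0.13 for Cebpg. With equal upper quartiles it was 0.18 for Nupr1 and 0.075 for Slc3a2 in 3D bioink against tumours, and between the cultures 0.21 for Dnajc3, 0.19 for Edem1, 0.067 for Atf4, 0.20 for Atf5 and 0.19 for Cebpg. With median-of-ratios size factors Nupr1 was 0.033 in 3D bioink against tumours, and between the cultures Dnajc3 was 0.065, Edem1 0.045, Atf5 0.057 and Cebpg 0.045. With array weights Nupr1 was 0.044 in 3D bioink against tumours, and between the cultures Dnajc3 was 0.018 and Chac1 -0.024.

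Leaving out 1 library at a time gave ranges across 0 in 2D culture against tumours for Atf6 (-0.0091 to 0.091), Shmt2 (-0.29 to 0.013) and Slc3a2 (-0.095 to 0.38). In 3D bioink against tumours they were -0.20 to 0.071 for Nupr1 and -0.46 to 0.022 for Slc3a2. Between the cultures they were -0.043 to 0.018 for Dnajc3, -0.082 to 0.019 for Edem1, -0.15 to 0.074 for Atf5 and -0.15 to 0.022 for Cebpg.

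Replicate numbers did not pair the libraries, since deviations of libraries with the same number correlated at -0.0326 to 0.0797. With the replicate number as a block, members called went from 32 to 30 in 2D culture against tumours (without Manf, adjusted p = 0.0634, and Mthfd2, adjusted p = 0.0662), stayed at 35 in 3D bioink against tumours and went from 30 to 31 between the cultures (with Shmt2, adjusted p = 0.0299), by limma. With no depth or unit per read, a limit of detection cannot be given.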
